A study of Mus musculus with 6 samples.

Results

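The transcription factor p53, encoded by Trp53, and 9 genes that it activates directly were examined in mouse cortex at postnatal day 7. The 10 genes were taken by symbol from a table of 24972 genes: Trp53 itself, Mdm2, Cdkn1a, Ccng1, Bax, Bbc3, Pmaip1, Sesn1, Sesn2 and Trp53inp1. RNA was sequenced from 3 libraries labelled wildtype, which come from Zmiz1f/f mice, and 3 labelled Zmiz1-KO, from Zmiz1f/f mice that also carry Emx1-Cre. Both groups therefore carry the floxed Zmiz1 allele, and only the second carries Cre, whose expression under Emx1 control begins in the progenitors of cortical excitatory neurons and glia. Cells of other origin in the same tissue, such as interneurons, microglia and vessels, keep both alleles in either group. Whether each library comes from 1 animal is not stated. The p values therefore take each library as 1 unit and cannot be read as tests over a known number of animals.

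In most cells p53 protein is made continuously and destroyed continuously. The ubiquitin ligase Mdm2 marks it for degradation, and because Mdm2 is itself a p53 target, the pair forms a feedback loop. DNA damage and other stresses interrupt this loop, after which p53 binds to pairs of short DNA elements near its target genes. The targets arrest the cell cycle, trigger apoptosis or adjust metabolism. In the developing brain p53 is best known for removing damaged progenitors and young neurons. ZMIZ1 has been described as a co-activator of p53-driven transcription, so the comparison asks whether p53 targets had other levels in cortex labelled as lacking it.

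Zmiz1 had 8119, 7929 and 7461 normalized counts in wildtype and 9944, 9779 and 9660 under the Zmiz1-KO label, where values are listed here and throughout in the order of replicate number. The targeted gene was thus higher in the libraries labelled Zmiz1-KO, by 0.32 on the log2 scale (95% interval 0.24 to 0.41, limma adjusted p = 0.00125), which goes against the label, and the groups are named only by their label. Whether labels or columns were exchanged was not tested, and an exchange would turn the sign of every change given here. With 1 value per gene, transcripts with and without the deleted part could not be told apart. An estimated 15494272 to 17857835 reads or read pairs were counted per library, and which of these the unit is was not determined. Xist was at 25307 in wildtype replicate 3 and 24403 in Zmiz1-KO-labelled replicate 2, against at most 57.3 elsewhere, so each group holds 1 female library. Markers of excitatory neurons were abundant, with 6 genes summing to 35605 to 41876 in wildtype and 34183 to 36550 under the Zmiz1-KO label. These sums overlapped between the groups. The change was negative for all 6, and of them only Emx1 was called. Emx1 is also the gene whose control drives Cre here, so its call cannot be read as that of a marker alone. The 5 markers of dividing cells summed to 2310 to 2439 in wildtype and 2393 to 2660 under the Zmiz1-KO label, and these sums overlapped. All 5 had a positive change and 0 were called. No marker of the 12 lists used was at 0 in all libraries. In bulk tissue, fewer cells of a type and less RNA per cell cannot be told apart. Several other marker lists had sums that did not overlap between the groups. Those of inhibitory neurons (14858 to 18499 in wildtype, 19534 to 21147 under the Zmiz1-KO label), striatal neurons (6921 to 9595 and 9800 to 10969) and meningeal fibroblasts (10076 to 11537 and 12376 to 13466) were higher under the Zmiz1-KO label. That of the oligodendrocyte lineage (14170 to 16124 and 12547 to 13122) was lower there. Within these lists Col1a2 was called higher and Olig1 lower, and the astrocyte marker Aqp4 was also called lower. Sums of the 5 choroid plexus markers varied widely within both groups and overlapped. They ran from 341 to 8441 in wildtype and from 394 to 4922 under the Zmiz1-KO label. The part of these marker lists in the results was not tested. Genes were tested where 3 or more libraries reached 10 normalized counts, which left 15800, and changes below are log2 fold changes from limma, Zmiz1-KO label over wildtype, with their standard error (SE).

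The genes were chosen as p53 targets, so matches to the p53 motif near annotated starts are shown as a description and not as a finding. RefSeq promoter windows on GRCm38.p6, which run from 250 bases before to 50 bases after an annotated start, were found for 8 of the 10 genes, in 12 windows. Pmaip1 and Trp53inp1 were not matched. Each window was searched for the decamer to which p53 binds, 3 purines, a core of CATG or CAAG or CTTG or CTAG, and 3 pyrimidines. This motif reads as the same motif on the other strand. At least 1 window of 6 of the 8 genes held it, where 9.55% of all 27025 genes with a window did. Counted by window, it was in 6 of 12, where it was in 8.36% of all 32851. The matches are printed below 5′ to 3′ on the strand of the gene, with the decamer in capitals and 10 bases on each side, since p53 contacts its targets through such elements.
Trp53: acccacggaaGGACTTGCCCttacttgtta
Mdm2: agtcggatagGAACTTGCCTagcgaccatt
Cdkn1a: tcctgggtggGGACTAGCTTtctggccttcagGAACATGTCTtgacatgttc
Ccng1: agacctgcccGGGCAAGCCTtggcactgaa
Bax: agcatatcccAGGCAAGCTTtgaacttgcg
Sesn1: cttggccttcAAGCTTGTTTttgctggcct
These stretches lie at chr11:69580274-69580303 (plus strand) for Trp53, chr10:117710925-117710954 (minus) for Mdm2, chr17:29090896-29090947 (plus) for Cdkn1a, chr11:40755452-40755481 (minus) for Ccng1, chr7:45467080-45467109 (minus) for Bax and chr10:41887256-41887285 (plus) for Sesn1. None overlaps an exon in GENCODE M21. The stretch of Sesn1 lies inside that gene, which spans 41809935 to 41908424, and so precedes an internal start. Cdkn1a was the only one of the 8 genes with a pair of decamers at most 13 bases apart, an arrangement present in 24 of all 32851 windows (0.0731%). The pair began 73 bases before the start, and the single decamer of Trp53 began 75 bases before it. In Cdkn1a, the 10 bases printed after the second decamer miss the motif only in their first base, so they are not in capitals. No decamer was found in the windows of Bbc3 and Sesn2, which says only that these letters are absent there. A match is a description of the sequence and not a measured binding site.

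All 10 genes were detected in every library and passed the filter, but at very different levels. Levels between genes were compared as normalized counts per kilobase of merged exon. Bax, the pore-forming killer protein of mitochondria, stood highest at 919 ± 43.7 per kilobase in wildtype and 879.7 ± 83.1 under the Zmiz1-KO label (SD, n = 3 per group), above 88.2% of the 15620 tested genes with a known length. Ccng1 followed at 525 ± 29.4 and 504 ± 6.51. Next came Bbc3 (355 ± 18.4 in wildtype), Cdkn1a (337 ± 60.4) and Sesn1 (313 ± 11.0), and the ranges over the 6 libraries of Bbc3 and Cdkn1a overlapped, as did those of Cdkn1a and Sesn1. Mdm2 (190.4 ± 14.7) and Trp53 (174 ± 14.3) overlapped as well, as did Sesn2 (92.8 ± 11.0) and Trp53inp1 (85.1 ± 3.82). Pmaip1 was lowest at 12.5 ± 4.01 per kilobase, above only 9.71% of tested genes. With the length of the longest transcript in place of merged exons, Cdkn1a moved from 4th to 2nd place, Ccng1 and Bbc3 each moved down by 1, and Sesn2 and Trp53inp1 changed places, while the first and the last gene stayed where they were.

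**Figure D1:**
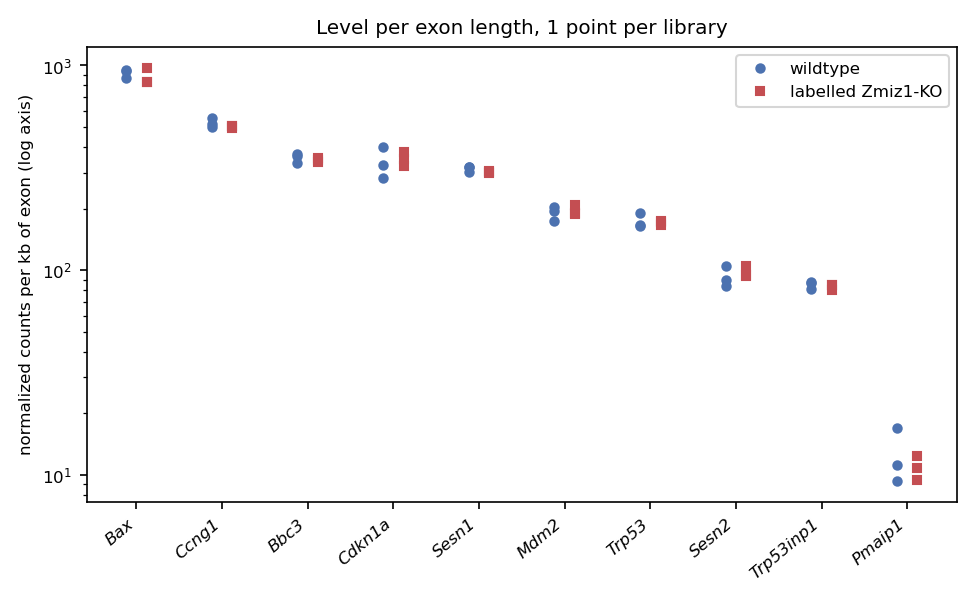
Normalized counts per kilobase of merged exon on a log axis for the 10 genes, ordered by their mean, with 1 point per library (blue circles wildtype, red squares labelled Zmiz1-KO). Bax lies near 900 and Pmaip1 near 12 per kilobase, and within each gene the ranges of the blue and red points overlap.

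Trp53 lies on chromosome 11 of GRCm38 from 69580359 to 69591873 (plus strand). It had 666, 769 and 672 normalized counts in wildtype, against 705, 676 and 697 under the Zmiz1-KO label. Wildtype replicate 2 was the highest of all, and the 3 libraries of the other group lay within the wildtype range. Mean levels were 702 ± 57.7 and 693 ± 14.7 (SD, n = 3 per group), a change of -0.017 (SE 0.076, limma adjusted p = 0.962). Its 95% interval reached from 11.6% lower to 10.4% higher. Only 1.09% of the 75-base stretches of Trp53 transcripts occur in another gene, mostly its pseudogene Trp53-ps.

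Mdm2, the ligase that degrades p53 (chromosome 10, from 117688875 to 117710758, minus strand), had 886, 987 and 1032 normalized counts in wildtype and 964, 956 and 1064 under the Zmiz1-KO label. The single highest value came from the second group and the single lowest from wildtype, and the groups overlapped. Its change was 0.040 (SE 0.071, limma adjusted p = 0.896), with an interval from 7.41% lower to 14.1% higher. Mdm4, which binds p53 beside Mdm2 and inhibits it, also overlapped between the groups, with 3819 ± 359 normalized counts in wildtype and 3731 ± 52.2 in the other group (SD, n = 3 per group, change -0.029, limma adjusted p = 0.907). The ratio of Mdm2 to Mdm4 normalized counts, which does not depend on the scaling of a library, was 0.254, 0.235 and 0.274 in wildtype and 0.255, 0.255 and 0.290 in the other group. This was a difference of 0.069 on the log2 scale (two-sided exact permutation test, p = 0.4, and 0.8 adjusted over the 2 ratios tested).

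**Figure D2:**
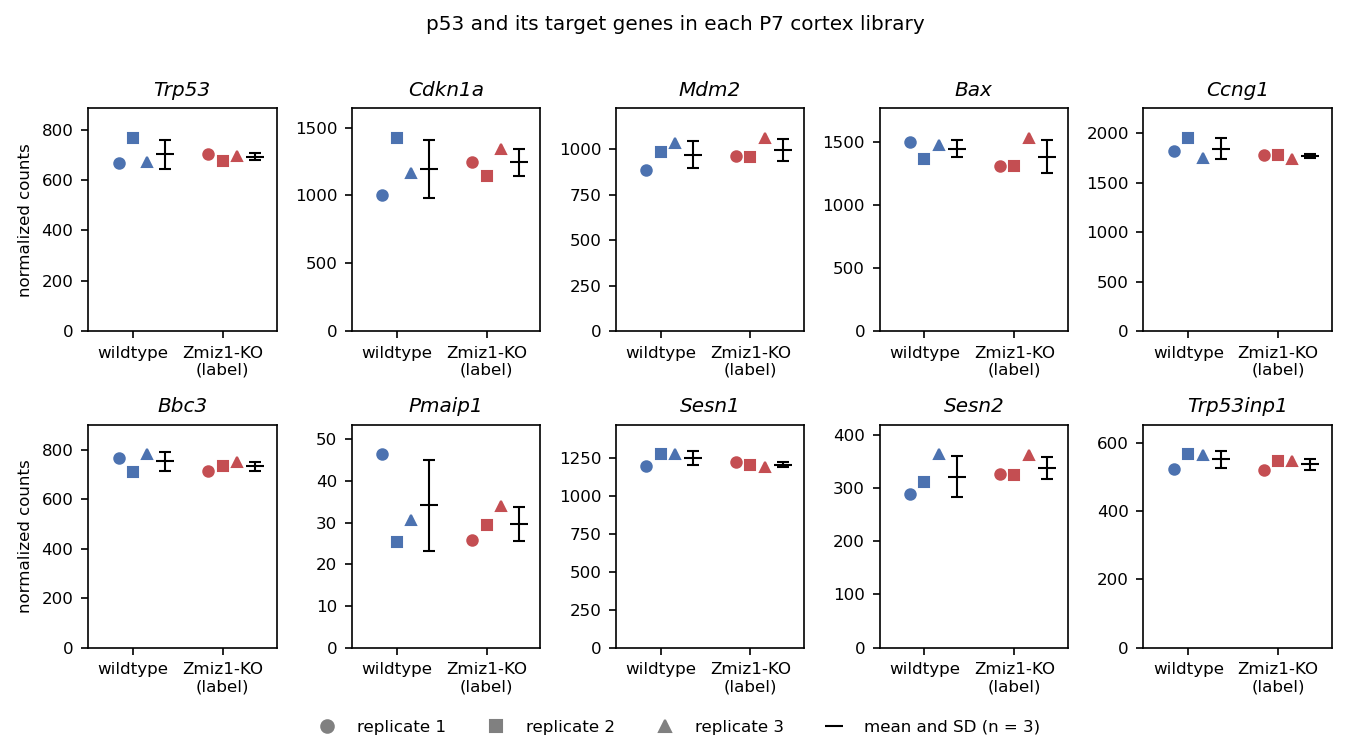
Normalized counts of each of the 10 genes in each library, on axes that start at 0, with blue points for wildtype, red points for libraries labelled Zmiz1-KO, a marker shape for each replicate number and black bars for the mean and SD (n = 3). In every panel the red points overlap the blue ones, and Cdkn1a (1002 to 1427) and Pmaip1 (25.5 to 46.5) scatter most widely within wildtype.

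Of the targets that act on the cell cycle, Cdkn1a encodes p21, the inhibitor of cyclin-dependent kinases through which p53 arrests cells. Its locus is on chromosome 17 from 29090976 to 29100727 (plus strand). The values were 1002, 1427 and 1163 normalized counts in wildtype, against 1245, 1144 and 1339.6 under the Zmiz1-KO label. Wildtype held both the lowest and the highest library. Cdkn1a averaged 1197 ± 215 and 1243 ± 98.0 (SD, n = 3 per group), a change of 0.066 (SE 0.13, limma adjusted p = 0.910) with an interval from 15.9% lower to 30.3% higher. Its spread within groups, an SD of 0.20 on the log2 scale, was larger than that of 77.0% of tested genes, and without wildtype replicate 2 its change was 0.20 (limma adjusted p = 0.379), which passed 0.05 before adjustment. Without wildtype replicate 1 its change was -0.055. A transcript on the opposite strand, AC167363.2, covers 7.68% of the exon bases, and the library kit did not mark strand.

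Ccng1 encodes cyclin G1, which recruits a phosphatase to Mdm2 and so dampens p53. On chromosome 11 from 40748552 to 40755311 (minus strand), it had 1823, 1956 and 1752 normalized counts in wildtype and 1781, 1782 and 1742 under the Zmiz1-KO label. In the second group 1 library lay below all of wildtype, and the others lay inside its range. The means were 1844 ± 103 and 1768 ± 22.8 (SD, n = 3 per group). Its change of -0.059 (SE 0.053) had the smallest adjusted p of the 10 genes (limma, 0.751), with an interval from 11.2% lower to 3.80% higher.

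Bax, Bbc3 and Pmaip1 act in apoptosis at the mitochondrion. Bax forms pores in the outer membrane, while Bbc3 (PUMA) and Pmaip1 (NOXA) are BH3-only proteins that block the survival proteins of the Bcl2 family. Bax, on chromosome 7 from 45461697 to 45466898 (minus strand), had 1499.6, 1371 and 1477 normalized counts in wildtype, against 1312, 1309 and 1538 under the Zmiz1-KO label. In the second group, replicates 1 and 2 lay below all wildtype values and replicate 3 above all of them. Its change was -0.067 (SE 0.067, limma adjusted p = 0.787), and the interval ran from 13.4% lower to 5.34% higher. Without replicate 3 labelled Zmiz1-KO its change was -0.14 (limma adjusted p = 0.663), which passed 0.05 before adjustment. The neighbouring gene Gm45808, on the same strand, shares 12.2% of the Bax exon bases.

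Bbc3, on chromosome 7 from 16308393 to 16318205 (plus strand), had 768, 709 and 783 normalized counts in wildtype and 713, 735 and 752 in the other group. All 3 of the latter lay within the wildtype range. The change of -0.038 (SE 0.070, limma adjusted p = 0.900) had an interval from 12.1% lower to 7.95% higher. Pmaip1, the least abundant member, had 46.5, 25.5 and 30.7 normalized counts in wildtype and 25.9, 29.4 and 33.9 under the Zmiz1-KO label. This stands for an estimated 12.1 to 23.1 reads or read pairs per library. The interval of its change of -0.16 (SE 0.31, limma adjusted p = 0.907) was wide, from 43.2% lower to 41.3% higher. Wildtype replicate 1 was the highest library, and without it the change was 0.079.

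Against the apoptotic members stand the survival proteins. Bcl2 had 487, 667 and 593 normalized counts in wildtype, against 521, 619 and 596 under the Zmiz1-KO label, a change of -0.0013 (SE 0.11, limma adjusted p = 0.998) whose sign turned with the scaling of the libraries. For Bcl2l1 (BCL-XL) the means were 3233 ± 115 and 3246 ± 199 (SD, n = 3 per group, limma adjusted p = 0.990). The ratio of Bax to Bcl2 normalized counts was 3.08, 2.05 and 2.49 in wildtype and 2.52, 2.12 and 2.58 in the other group. These values overlapped, with a difference of -0.065 on the log2 scale (two-sided exact permutation test, p = 1.0, and 1.0 adjusted over the 2 ratios).

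The last 3 members link p53 to metabolism. Sesn1 and Sesn2 encode sestrins, which restrain the growth kinase mTORC1 under stress and amino acid shortage, and Trp53inp1 encodes a stress protein with roles in autophagy. Sesn1, on chromosome 10 from 41809935 to 41908424 (plus strand), had 1197, 1274 and 1273 normalized counts in wildtype, against 1221, 1203 and 1187 under the Zmiz1-KO label. Its means of 1248 ± 43.9 and 1204 ± 17.1 (SD, n = 3 per group) gave a change of -0.052 (SE 0.057, limma adjusted p = 0.810), with an interval from 11.2% lower to 4.83% higher. Of the 10 genes Sesn1 scattered least within groups, with only 10.0% of tested genes below it. Sesn2, on chromosome 4 from 132492032 to 132510501 (minus strand), had 290.2, 312 and 365 normalized counts in wildtype and 328, 326 and 363 under the Zmiz1-KO label. The second group lay inside the wildtype range, and a change of 0.077 (SE 0.11, limma adjusted p = 0.863) had an interval from 9.97% lower to 23.5% higher.

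Trp53inp1, also on chromosome 4, from 11156431 to 11174379 (plus strand), had 523, 567 and 564 normalized counts in wildtype and 519, 545 and 546 in the other group. The lowest value belonged to the second group and the highest to wildtype. Its change was -0.037 (SE 0.078, limma adjusted p = 0.913), and the interval ran from 13.1% lower to 9.28% higher. The relatives Sesn3 (743 ± 117 and 719 ± 93.3 normalized counts, limma adjusted p = 0.940) and Trp53inp2 (8904 ± 340.2 and 8647 ± 264, limma adjusted p = 0.777) overlapped between the groups too (SD, n = 3 per group).

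Across the 10 genes, 0 were called at an adjusted p of 0.05 (limma), where 65 of all tested genes were (0.411%, or 0.165% called higher and 0.247% called lower). At an adjusted p of 0.1 it was again 0 of 10, against 0.671% of all genes. At an unadjusted p of 0.05 the count was also 0 of 10, where 11.0% of all tested genes passed (5.13% higher and 5.84% lower). The values of the groups overlapped in all 10, whereas in 16.3% of tested genes they did not overlap. Cdkn1a, Mdm2 and Sesn2 had a positive change under the Zmiz1-KO label, and the other 7 a negative one. Of all tested genes, 49.9% had a positive change. The median change of the 10 genes was -0.038 against -0.00 over all tested genes. Taken without sign, the median change was 0.055 over the 10 genes and 0.075 over all tested genes. Exact permutation p values of the single genes ran from 0.3 to 1.0, and with 3 libraries against 3 the smallest possible is 0.1. Within wildtype, replicate 2 held the highest value of 5 of the 10 genes, and within the other group replicate 3 held the highest of 7. Missing the threshold does not show equal levels. Outside Pmaip1, Cdkn1a and Sesn2 the intervals of this fit left room for changes of at most 14.1% in either direction, but they depended on the settings. With no trend in limma some were wider on the log2 scale, as for Mdm2 (-0.16 to 0.24) and Bax (-0.27 to 0.14). Others were narrower, as for Bbc3 (-0.18 to 0.10).

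**Figure D3:**
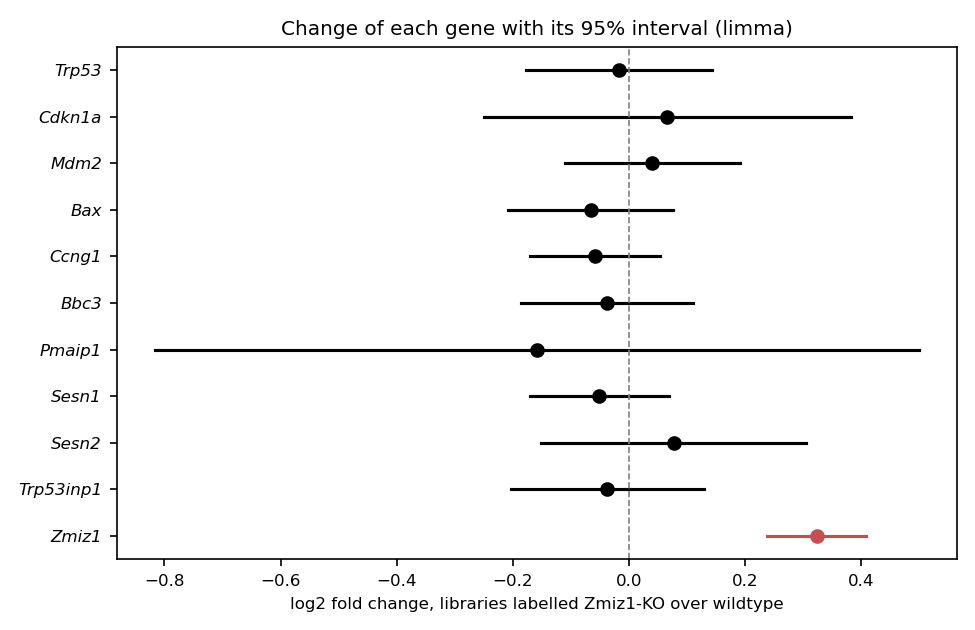
Log2 fold change of the libraries labelled Zmiz1-KO over wildtype for the 10 genes (black) and Zmiz1 (red), with lines for the 95% interval from limma. All 10 black intervals cross 0, the widest being that of Pmaip1 (-0.82 to 0.50), and that of Zmiz1 (0.24 to 0.41) does not.

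**Figure D4:**
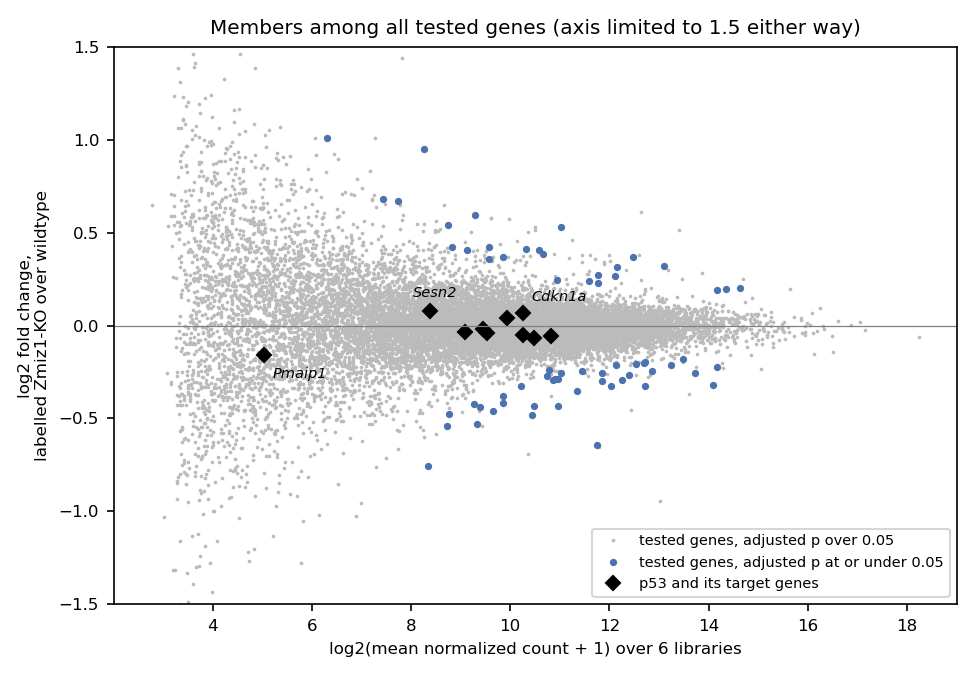
Log2 fold change against log2(mean normalized count + 1) for the 15800 tested genes, with genes at an adjusted p at or under 0.05 in blue and the 10 p53 genes as black diamonds; 44 genes lie beyond the axis limit of 1.5. The diamonds lie between -0.16 and 0.077, inside the grey cloud, and none of the 10 is a called gene.

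The wider pathway was read from 5 lists, which share Apaf1 in 2 of them. In none of the lists did a gene pass the threshold over all tested genes (limma). The unadjusted counts of each list are to be read against 11.0% of all tested genes in either direction. Among 40 other p53 targets, 39 were tested, and 3 had an unadjusted p at or under 0.05. All 3 were higher under the Zmiz1-KO label, where 5.13% of all tested genes passed as higher and 5.84% as lower. In 6 the groups did not overlap (15.4%, against 16.3% of all genes), 4 of them higher and 2 lower. The median change of the 39 tested targets was 0.040. Btg2, an antiproliferative target that neuronal activity also induces, had 262, 375 and 292 normalized counts in wildtype, against 395, 426 and 421 under the Zmiz1-KO label. All 3 of the latter lay above wildtype, and a change of 0.43 (SE 0.12, limma adjusted p = 0.168) became 0.58 without wildtype replicate 2 (limma adjusted p = 0.0244). Of 8 early activity genes, 4 (Fos, Fosb, Egr1 and Arc) were called and all 8 had a positive change, with sums of 4421 to 4728 in wildtype and 5980 to 6134 under the Zmiz1-KO label, and their part in the Btg2 values was not tested. Steap3, a ferrireductase, had 270.0 ± 7.89 and 329 ± 29.0 normalized counts (SD, n = 3 per group, change 0.28, limma adjusted p = 0.322). Sfn was scarce, at 4.14 to 30.7 normalized counts, and its groups overlapped. Its change was 1.09 (SE 0.50, limma adjusted p = 0.443). Gdf15 was under the filter, at 0 to 8.29.

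Regulators and relatives of p53 had more negative than positive changes. Of 26 names, 24 were in the table and 23 were tested. Of these, 18 had a negative change and 5 a positive one, where 49.9% of all genes had a positive one. An unadjusted p at or under 0.05 was found for 4, all 4 lower. Of all tested genes, 5.84% passed as lower and 5.13% as higher. The median change of the 23 tested genes was -0.046. Groups did not overlap in 5 (21.7%, against 16.3% of all genes), namely Trp73, Ep300, Atm, Trp53bp2 and Usp7, of which the last 3 are named because of this count. Trp73, the p53 relative expressed in Cajal-Retzius neurons, had 237, 240.3 and 239 normalized counts in wildtype and 149, 201 and 201 in the other group, a change of -0.39 (SE 0.14, limma adjusted p = 0.280). The acetyltransferase Ep300, a co-activator of p53, had 2451 ± 101 and 2228 ± 128 (SD, n = 3 per group, change -0.14, limma adjusted p = 0.328). Setd7, a methyltransferase that modifies p53, had a change of -0.11 (limma adjusted p = 0.404). Cdkn2a, whose product ARF blocks Mdm2, was at 0 to 5.95 normalized counts and was not tested.

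In the Bcl2 family and apoptosome, 22 of 23 genes were tested, 11 with a positive and 11 with a negative change, and the median change was 0.0022. Hrk, a neuronal BH3-only protein, was the only one with an unadjusted p under 0.05 and with groups apart (4.55% of those tested, against 16.3% of all genes), at 1768, 1779 and 1714 normalized counts in wildtype and 1966, 1947 and 1924 in the other group. It had a change of 0.15 (SE 0.048, limma adjusted p = 0.240). Bmf and Cycs, next by p, had limma adjusted p values of 0.682 and 0.740.

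Among the 25 partners of p21 and cell cycle inhibitors, all tested, 15 had a positive change, 3 had an unadjusted p at or under 0.05, and 4 had groups apart (16.0%, near the 16.3% of all genes). The kinase Cdk6 had 568, 564 and 701 normalized counts in wildtype and 497, 490 and 475 in the other group, a change of -0.32 (SE 0.091, limma adjusted p = 0.180). Cdkn1c, a sister inhibitor of p21, had 589 ± 39.7 and 696 ± 78.9 (limma adjusted p = 0.323), and Pcna, the replication clamp that p21 binds, had 1374 ± 17.8 and 1496 ± 56.5 (SD, n = 3 per group, limma adjusted p = 0.411). Of 13 sestrin partners and relatives, 0 had an unadjusted p at or under 0.05, and 3 had groups apart (23.1%, against 16.3% of all genes). These were Mios, Keap1 and Sec13, with changes of -0.11, 0.076 and 0.069 (limma adjusted p from 0.551 to 0.688).

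**Figure D5:**
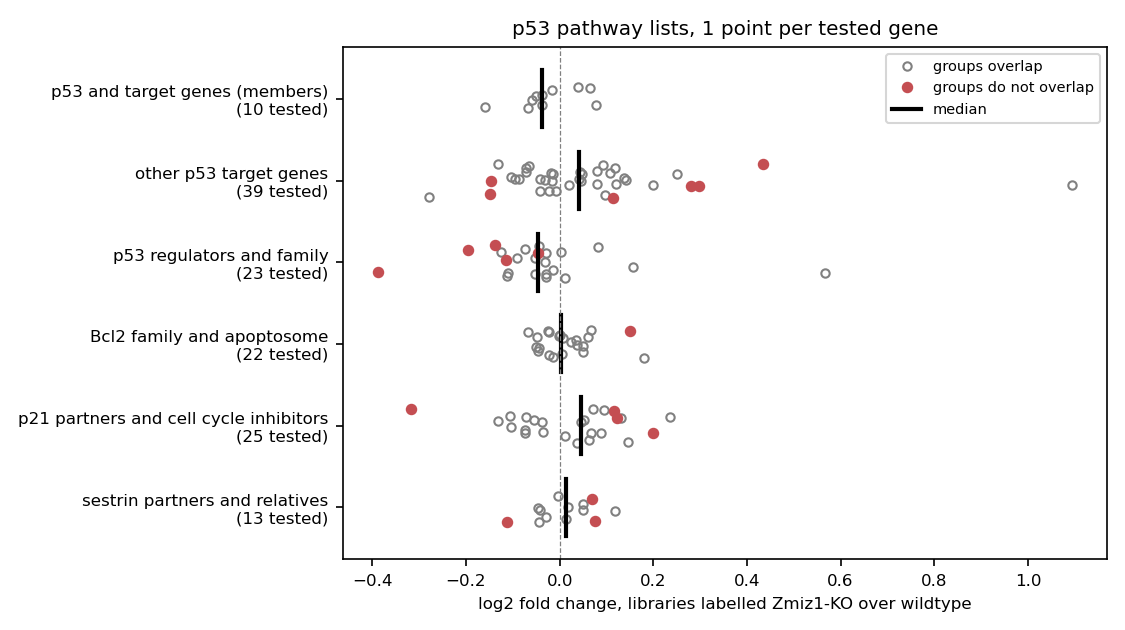
Log2 fold change of the libraries labelled Zmiz1-KO over wildtype for each tested gene of the 10 p53 genes and of the 5 pathway lists, with filled red points where the groups do not overlap and a black bar at the median. The medians lie between -0.046 and 0.046, and the 10 p53 genes have no red point.

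The genes whose library pattern was most like a member's were sought by the root mean square difference of log2 values over the 6 libraries, after centring each gene on its mean. For Trp53 these were Zfp689, Zfp81 and Cox17, with differences of 0.012, 0.022 and 0.024 on the log2 scale, where the pattern of Trp53 itself deviates by 0.070 from its mean. Like Trp53, all 3 were highest in wildtype replicate 2. For Cdkn1a they were Vamp1, Mrpl15 and Myct1, with differences of 0.031, 0.038 and 0.052, against a deviation of 0.17 for Cdkn1a. These 3 were lowest in wildtype replicate 1 and highest in wildtype replicate 2, as Cdkn1a was. Among 15800 genes and 6 libraries, close matches are a description with no test.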

How the data were processed

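In Illumina BaseSpace the authors aligned reads to mm10 (STAR) and scaled gene counts (DESeq2). The deposited values are this signal, called normalized counts here, with 1 column per library. Tool versions, counter and annotation are not given in the sources used here. Low values lie near multiples of a step that varies by gene, so whole reads were not recovered; depth was estimated as the column sum over the commonest low value, and intervals rest on 3 libraries per group. Values were taken as log2(value + 1), and the groups were compared with limma (version 3.58.1, R version 4.3.3; trend, robust, no covariate), two-sided, with Benjamini-Hochberg adjustment over 15800 genes. Fold changes are on that scale, which understates low genes. The procedure was run on simulated counts that gave every gene the same dispersion, so it was not tested on genes of unequal spread. Count-based tests were not run.

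The members and lists were chosen with earlier results of these data known. Named genes are the members, Zmiz1, genes of a list past the threshold or otherwise its 3 with the smallest p, close relatives, and the 3 nearest patterns to Trp53 and Cdkn1a. Coordinates, exon lengths and shared 75-base stretches are from GENCODE M21 (GRCm38), the same build as mm10. Plots used matplotlib 3.10.9 under Python 3.11.15. The order of levels with the longest transcript was added after seeing the data. The other settings tried are listed with their effect in the closing section.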

Additional observations from a re-analysis of the deposited data

How the results depend on the processing

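None of the 10 p53 genes passed an adjusted p of 0.05 (limma) under any of the 17 other settings, which were pseudocounts of 0.1 and 10, no filter or a stricter one, median-ratio and upper-quartile rescaling, no trend, no robust estimation, an adjusted p of 0.1, the replicate block, an Xist covariate and each library left out; at an unadjusted p of 0.05, 1 gene passed without wildtype replicate 2 and 1 without replicate 3 labelled Zmiz1-KO. The count over all genes was 17 without robust estimation, 0 with no trend (the cause was not tested), 106 at an adjusted p of 0.1 and 12 (without replicate 3 labelled Zmiz1-KO) to 152 (without replicate 2 labelled Zmiz1-KO) with a library left out, where it was also 17 without replicate 1 labelled Zmiz1-KO and 30 without wildtype replicate 1. Zmiz1 was not called with no trend (0.32, limma adjusted p = 0.380). With the replicate block 168 genes passed, but same-numbered libraries did not deviate together (r = -0.00509, -0.113 and -0.00627), so the numbers were not taken as pairs. With a library left out, log2 fold changes ran from -0.054 to 0.050 for Trp53, -0.055 to 0.20 for Cdkn1a, -0.023 to 0.087 for Mdm2, -0.14 to -0.027 for Bax, -0.095 to -0.015 for Ccng1, -0.081 to -0.0096 for Bbc3, -0.081 to -0.036 for Sesn1, 0.0042 to 0.17 for Sesn2, -0.075 to -0.013 for Trp53inp1, -0.34 to 0.079 for Pmaip1, -0.093 to 0.041 for Mdm4, -0.12 to 0.10 for Bcl2, -0.039 to 0.049 for Bcl2l1 and -0.17 to 0.059 for Sesn3, the log2 difference of the Mdm2 to Mdm4 ratio from 0.0085 to 0.12, and that of the Bax to Bcl2 ratio from -0.21 (without wildtype replicate 2) to 0.083 (without wildtype replicate 1). Bcl2 also changed sign with upper-quartile rescaling (0.00903) and the Xist covariate (0.0105), and Bcl2l1 with the Xist covariate (-0.000345). Of the other p53 targets, 0 were called, or 1 (Btg2) without wildtype replicate 2. Pmaip1 rests on an estimated 12.1 to 23.1 reads or read pairs per library.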
